A study of Mus musculus with 18 samples.

Results

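The comparison of antigen-challenged tolerized cells with antigen-challenged naive cells (TAg:NAg) rests on 6 of the 18 RNA-seq libraries of the study, 3 from each group, and these libraries were taken by their group labels. Every library came from CD4 T cells that had been enriched by negative magnetic selection from the spleen of Tg4-H2u mice, in which a transgenic TCR recognizes the Ac1-9 peptide of myelin basic protein (MBP). The methods describe male and female mice of 6 to 12 weeks. In the TAg group the mice had received 7 escalating subcutaneous doses of the 4Y peptide at intervals of several days, and in the NAg group the vehicle (PBS) in the same scheme. Both groups then received a final injection of 80 microgram of peptide 2 h before harvest. The resting groups T0 and N0 had the same histories, and their final injection held PBS alone. The question of the comparison is which genes differ in level after the same antigen (Ag) between T cells that have met it repeatedly and those that have not. Such a difference can also be present at rest. Whether the response itself differs takes the resting groups as well, and is given for some of the genes. The values are raw read counts for each Ensembl gene, scaled here to a common library size (normalized counts). In these bulk samples a lower level of a gene cannot be told apart from a smaller share of cells that express it.

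A T cell that recognizes its peptide activates 3 arms of signaling, through calcium and NFAT, through MAP kinases and AP-1, and through NF-kB, and within hours it transcribes early transcription factors, cytokines and feedback inhibitors, while genes of the resting state are switched off and the cell begins to build ribosomes for growth. In tolerance, or anergy, the same receptor engagement yields little IL-2, and receptors and enzymes that restrain signaling are expressed instead. Repeated doses of soluble peptide are known to give cells that secrete IL-10, often called Tr1 cells.

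A total of 17240 genes, those with a group mean of 3 or more normalized counts in any group, were tested with edgeR's quasi-likelihood test. At an adjusted p under 0.05, 3609 genes (20.9% of those tested) were higher and 3185 (18.5%) lower in TAg than NAg. These 2 shares are the background for the TAg:NAg counts of every list of genes described here. The same shares were not counted for T0 against N0, so counts of list members at rest have no background beside them. Genes with a change of at least 2-fold and a mean above 50 in the higher group as well, referred to as called, were 622 higher (3.61%) and 353 lower (2.05%). The change was at least 4-fold for 105 of the higher and 80 of the lower genes, and at least 8-fold for 47 and 25. The median log2 fold change, taken as TAg over NAg throughout, was 0.01 over all tested genes. The called lower genes had more reads, with a median level of 416 normalized counts in NAg and 124 in TAg. Their median exonic length was 3551 bases, against 3580 for the called higher genes, whose median levels were 65.9 and 182.

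**Figure D1:**
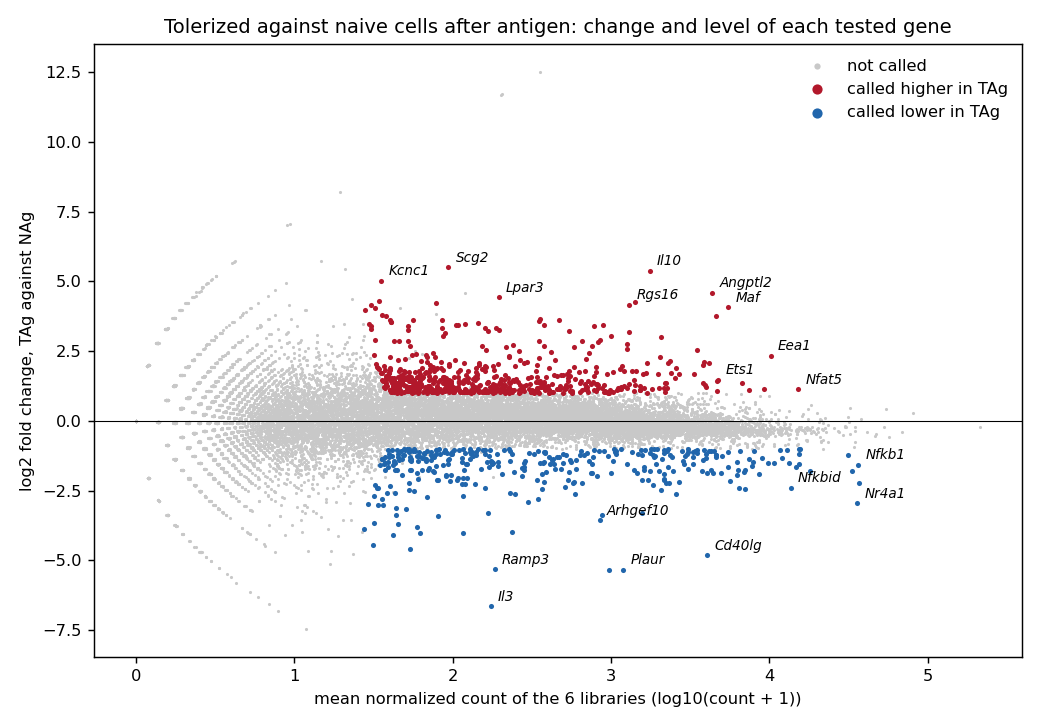
Each point is 1 of the 17240 tested genes, with its mean normalized count over the 6 libraries as log10 after adding 1 and its log2 fold change, TAg against NAg. The 353 genes called lower (blue) reach further right, toward higher levels, than the 622 called higher (red).

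Total counts were 10919277 to 12600325 in TAg and 11937546 to 13559974 in NAg. One TAg library, replicate 3, carried 5111 reads of 4 Y-linked genes and 16 of *Xist*, while the other TAg and the NAg libraries had at most 18 reads of the Y-linked genes. At rest, T0 replicates 1 and 2 carried 6563 and 6320 such reads, and the other resting libraries at most 15, so both comparisons set groups of mixed sex against groups without Y-linked reads. Markers of other cells were detected after the enrichment, and those of neutrophils and macrophages differed between the groups. All 14 neutrophil markers passed the test as higher in TAg, with a summed normalized count of 2733 to 5035 per TAg library and 250.2 to 526 per NAg library. Of 15 macrophage and monocyte markers, 8 were lower and 2 higher in TAg, and their sum was highest in NAg replicate 1, at 3249, with 881 and 1049 in the other NAg libraries and 1493 to 2163 in TAg. The sums of the B cell and platelet markers overlapped between the groups, and of 13 erythroid markers 2 were higher. The sum of the plasma cell markers was 36379 to 40984 in TAg and 48122 to 48949 in NAg, although 2 of the 5 markers were higher and 1 lower. Members of this list, such as *Prdm1* and *Xbp1*, also stand in the lists of T cell lineage factors and chaperones. Its sum is therefore not a measure of plasma cells alone. When scores of the neutrophil, erythroid and B cell markers were added to the model as covariates, the called genes dropped from 622 to 21 higher and from 353 to 85 lower. The neutrophil score was 3.40 to 4.06 in the TAg and 0.929 to 1.59 in the NAg libraries (mean log2 of CPM plus 1), so this covariate followed the groups. Of the 164 genes named here that passed the test, 124 no longer passed in this fit. What the other cells contributed to single genes was not tested.

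**Figure D2:**
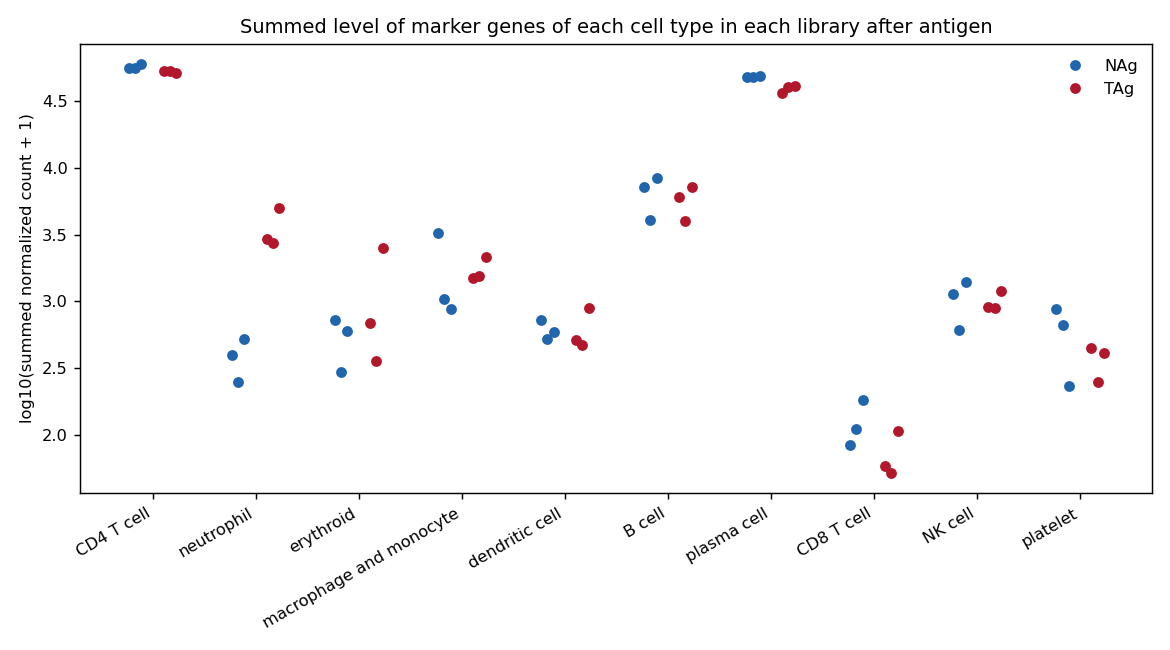
Each point is the summed normalized count of the marker genes of a cell type in 1 library as log10 after adding 1, in NAg (blue) and TAg (red). The neutrophil sums of TAg lie above those of NAg, and the sums of the other types overlap between the groups, except those of CD4 T cell and plasma cell markers, which lie lower in TAg. Single members of these 2 lists went both ways. Of 12 CD4 T cell markers 5 were higher and 5 lower, and of 5 plasma cell markers 2 were higher and 1 lower. The plasma cell list shares members with the lists of T cell lineage factors and chaperones.

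The called lower genes with the highest counts, without regard to their length, were the orphan nuclear receptors *Nr4a1* (NCBIM37, chromosome 15, 101097277 to 101105223) and *Nr4a3*, immediate early genes of TCR signaling whose products also act in T cell tolerance. *Nr4a1* had normalized counts of 58617, 62187 and 69904 in the NAg libraries and 8668, 6661 and 9303 in the TAg libraries (log2 fold change −2.95, SE 0.26, adjusted p = 1.09e-06). *Nr4a3* had 58672, 63402 and 60883 in NAg and 13432, 10271 and 15472 in TAg (log2 fold change −2.22, SE 0.15, adjusted p = 2.33e-09). The third member, *Nr4a2*, had 10881, 11248 and 10423 in NAg and 2153, 1960.1 and 1992 in TAg (log2 fold change −2.41, SE 0.08, adjusted p = 5.41e-16). The lowest NAg library stood several-fold above the highest TAg library for each. The zinc finger factors of the EGR family differed among themselves. *Egr1* was higher in TAg (2748, 2341 and 2755 in NAg, 3707, 4525 and 5127 in TAg, log2 fold change 0.77, SE 0.11, adjusted p = 1.71e-05), and *Egr4* was higher by a larger factor at a low level (5.99, 4.70 and 7.70 against 41.8, 89.4 and 87.1, log2 fold change 3.53, SE 0.36, adjusted p = 1.55e-07). *Egr2* had 3829, 3459 and 4141 in NAg and 4292, 4548 and 4762 in TAg, and *Egr3* 1037, 873 and 1027 and 753, 739 and 951. Neither passed the test (0.25, adjusted p = 0.317 and −0.26, adjusted p = 0.177), although *Egr2* passed as higher when the TAg and NAg libraries were fitted alone (0.27, adjusted p = 0.0152) and *Egr3* as lower with a covariate for libraries with Y-linked reads (−0.44, adjusted p = 0.00409). The EGR corepressor gene *Nab2* was higher in TAg (0.62, SE 0.09). In the list of NR4A, EGR and NAB genes as a whole, 3 of 9 were higher and 4 lower.

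At rest the levels of the NR4A genes were far lower. *Nr4a1* had means of 1044 ± 448 (SD, n = 3) in N0 and 442 ± 91.4 in T0, and *Nr4a3* 279 ± 49.9 and 158 ± 27.8, and both were lower in resting tolerized cells too (log2 fold change −1.24, adjusted p = 0.00447, and −0.82, adjusted p = 0.00247). *Nr4a2* was higher in T0 (125 ± 1.09) than in N0 (44.4 ± 8.54) by 1.49, adjusted p = 2.37e-08, the opposite of its direction after Ag. Tested as a difference between the 2 responses, the rise of each gene from rest to Ag was smaller in tolerized cells. The log2 difference was −3.91, SE 0.14, adjusted p = 5.15e-15 for *Nr4a2*, −1.71, SE 0.35, adjusted p = 0.0034 for *Nr4a1* and −1.40, SE 0.22, adjusted p = 0.000161 for *Nr4a3*.

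Of 18 genes of NF-kB subunits, their inhibitors and related regulators, 9 were lower and 4 higher, with a median log2 fold change of −0.44. *Nfkbid*, which encodes the nuclear inhibitor IkB-NS, a cofactor of NF-kB in T cells, changed most, with 21972, 22233 and 24597 in NAg and 4225, 4027 and 4801 in TAg (log2 fold change −2.40, SE 0.10, adjusted p = 1.55e-14). Among the subunits, *Rel* had 12515, 12867 and 12924 in NAg and 4919, 4825 and 5574 in TAg (log2 fold change −1.32, SE 0.09, adjusted p = 3.58e-11). *Nfkb1* (−1.58, SE 0.09), *Nfkb2* (−0.81, SE 0.08) and *Rela* (−0.69, SE 0.07) were lower as well. Every one of these genes had all NAg libraries above all TAg libraries. The inhibitors *Nfkbia* and *Nfkbib* and the apoptosis inhibitor gene *Birc3* were lower, with log2 fold changes of −0.89, −0.72 and −0.78. At rest *Nfkb1*, *Rel*, *Nfkb2* and *Rela* did not pass the test, with log2 fold changes between −0.18, adjusted p = 0.161, and 0.04, adjusted p = 0.808. *Tnip3*, which encodes an A20-binding inhibitor of NF-kB, went the other way, with 861, 732 and 494 in NAg and 3502, 3190.5 and 3416 in TAg (log2 fold change 2.28, SE 0.16, adjusted p = 1.02e-08).

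Of the AP-1 and BATF genes, 4 of 15 were lower and 1 higher. *Fosl2* carried the largest fall of the family, from 26179, 31276 and 26615 in NAg to 7886, 7932 and 8322 in TAg (log2 fold change −1.80, SE 0.09, adjusted p = 3.93e-13), although at rest it was higher in T0 (369 ± 35.0) than N0 (171 ± 13.6; 1.11, adjusted p = 2.24e-07). The small MAF factors *Maff* (−1.18, SE 0.18), *Mafk* (−0.69, SE 0.08) and *Mafg* (−0.57, SE 0.09) were lower. *Jun* was higher, with 1134, 868 and 1697 in NAg and 3041, 2588 and 2737 in TAg (log2 fold change 1.18, SE 0.19, adjusted p = 0.000237). No difference passed the test for *Fos* (−0.29, adjusted p = 0.431), *Fosb* (−0.48, adjusted p = 0.546), *Junb* (−0.30, adjusted p = 0.409) and *Batf* (−0.36, adjusted p = 0.143). Without NAg replicate 3 the sign turned for *Fos* (0.16) and *Fosb* (0.48), still without passing. Fitted on the TAg and NAg libraries alone, *Junb* (−0.29, adjusted p = 0.00875) and *Batf* (−0.35, adjusted p = 0.00144) passed as lower.

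Promoters are shown for 4 called genes, because each holds a motif of a factor family induced by TCR or cyclic AMP signaling: *Rel*, *Fosl2* and *Plaur*, which were lower in TAg, and *Scg2*, which had the largest rise. They were chosen after their values were seen. They are RefSeq sequences of the build GRCm38.p6, from 250 bases before to 50 after the start site, on the strand of the gene, with the motif named in capitals.

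Rel, chr11:23770920-23771219, minus strand, kappa-B consensus in capitals: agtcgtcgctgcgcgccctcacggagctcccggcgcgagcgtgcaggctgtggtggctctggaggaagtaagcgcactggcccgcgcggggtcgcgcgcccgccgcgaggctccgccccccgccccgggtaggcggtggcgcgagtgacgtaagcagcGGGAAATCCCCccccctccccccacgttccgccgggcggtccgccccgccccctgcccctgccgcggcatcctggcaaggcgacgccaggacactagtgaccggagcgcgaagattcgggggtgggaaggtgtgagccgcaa
Fosl2, chr5:32136222-32136521, plus strand, kappa-B consensus in capitals: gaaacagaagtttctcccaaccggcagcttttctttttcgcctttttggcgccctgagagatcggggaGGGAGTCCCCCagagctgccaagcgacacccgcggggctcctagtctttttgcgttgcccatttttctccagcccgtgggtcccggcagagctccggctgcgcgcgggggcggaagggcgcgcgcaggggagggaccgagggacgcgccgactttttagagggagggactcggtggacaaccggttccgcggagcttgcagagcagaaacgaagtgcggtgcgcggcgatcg
Plaur, chr7:24462233-24462532, plus strand, AP-1 motif in capitals: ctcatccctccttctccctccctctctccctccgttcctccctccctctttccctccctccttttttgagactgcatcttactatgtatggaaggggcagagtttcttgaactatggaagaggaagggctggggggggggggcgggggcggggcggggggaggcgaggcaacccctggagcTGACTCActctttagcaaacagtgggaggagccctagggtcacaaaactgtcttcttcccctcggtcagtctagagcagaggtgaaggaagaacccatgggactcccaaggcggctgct
Scg2, chr1:79439977-79440276, minus strand, cAMP response element in capitals: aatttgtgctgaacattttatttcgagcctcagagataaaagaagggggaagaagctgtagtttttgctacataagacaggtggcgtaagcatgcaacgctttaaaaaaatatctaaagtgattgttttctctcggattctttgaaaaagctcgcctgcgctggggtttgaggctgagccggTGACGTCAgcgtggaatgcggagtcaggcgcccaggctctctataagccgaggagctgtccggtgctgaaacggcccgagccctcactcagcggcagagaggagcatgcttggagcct

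Among genes with a promoter sequence at hand (211 of the 295 called lower, 395 of the 602 called higher and 9661 of the 13813 protein-coding gene symbols tested), the kappa-B consensus was found on either strand in 18% of the called lower, 14.2% of the called higher and 12.5% of all tested genes. The AP-1 motif TGANTCA was found in 11.4%, 6.58% and 6.46%, the cAMP response element TGACGTCA in 6.16%, 2.28% and 3.48%, the EGR motif GCGTGGGCG in 4.27%, 0.506% and 1.40%, and the core TGGAAA that NFAT factors recognize in 25.6%, 19.7% and 20.2%. Of the 8 motifs searched, the called lower genes had the highest share for these 5 and for the NR4A motif AAAGGTCA (1.42%, 0.506% and 1.19%). Several of these shares rest on few genes. For the NR4A motif they were 3 called lower and 2 called higher genes, and for the EGR motif 9 and 2. For the cAMP response element they were 13 and 9. The RUNX core TGTGGT ran the other way, with its highest share among the called higher genes (13.3%, 19.2% and 15.8%), and the E-box CACGTG had its highest share among all tested genes (10.4%, 9.37% and 11.5%). These shares are descriptions of letters within 300 bases, and no test was made of them. Overlapping matches of 1 motif were counted once, and overlap between different motifs was not removed.

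Beyond the cytokines, several of the largest falls were in genes of receptors and enzymes. *Plaur*, the receptor of the protease urokinase (chromosome 7, 25247519 to 25260892), had 2281, 2795 and 1924 in NAg and 55.0, 52.5 and 65.6 in TAg, a 40.2-fold difference (log2 fold change −5.33, SE 0.33, adjusted p = 5.29e-08). *Ramp3*, a subunit that pairs with receptors of the calcitonin family, had 443, 388 and 242 in NAg and 6.61, 8.35 and 11.3 in TAg (log2 fold change −5.32, SE 0.29, adjusted p = 5e-10). *Lipg*, the gene of endothelial lipase, had 1352, 2022 and 2334 in NAg and 34.1, 44.1 and 62.5 in TAg (log2 fold change −5.33, SE 0.28, adjusted p = 3.28e-09). For all 3 the groups were separated by more than 10-fold. The levels of *Plaur* and *Ramp3* in TAg had means of 57.7 and 8.74, against 63.1 and 55.7 in T0. The change of tolerized cells from rest to Ag was −0.13 for *Plaur* and −2.65 for *Ramp3* on the log2 scale, against 4.84 and 2.61 in naive cells. The interaction test gave a difference of −4.97, adjusted p = 1.58e-05 for *Plaur* and −5.25, adjusted p = 1.37e-07 for *Ramp3*.

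*Arhgef10*, a guanine nucleotide exchange factor, also had no rise in tolerized cells, with 1269, 1783 and 1622 in NAg and 134, 118 and 144 in TAg (log2 fold change −3.55, SE 0.14, adjusted p = 4.88e-14), against means of 124 in N0 and 149.9 in T0. Its antisense transcript *Gm16350* overlaps 96 of its 9210 exonic bases and was lower as well (−3.42). Within those bases the 2 cannot be told apart without knowledge of the strand. *Ndrg1*, a stress-responsive gene that has been described as an anergy factor, had 2538, 2946 and 3126 in NAg and 399, 200.3 and 263 in TAg (log2 fold change −3.32, SE 0.22, adjusted p = 4.59e-08). *Xkrx*, a membrane protein of the XK family, was lower (−3.97, SE 0.20) and, like *Ramp3*, fell below its resting level in tolerized cells, from a mean of 97.2 in T0 to 28.5 in TAg, while it rose from 255 in N0 to 446 in NAg. *Aph1c*, a component of gamma-secretase, *Tnfrsf19*, a receptor of the TNF family, *Agpat9*, an acyltransferase of glycerolipid synthesis, and the ephrin receptor gene *Epha2* were lower by log2 fold changes of −4.01, −3.80, −3.69 and −3.67, from means of 57.4 to 115 in NAg. Of the secreted factors, *Il3* (457, 304 and 265 in NAg, 7.71, 1.19 and 1.02 in TAg) had the largest fall of all called genes (log2 fold change −6.64, SE 0.44, adjusted p = 2.53e-08). *Cd40lg* was lower as well (−4.82, SE 0.17). *Ccl22*, a ligand of CCR4, had 239.7, 206 and 207 in NAg and 13.2, 13.1 and 13.3 in TAg (−4.03, SE 0.32).

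The remaining falls among genes of high counts were spread over chromatin, surface and survival genes. *Satb1*, an organizer of chromatin loops, had 44356, 56879 and 53990.2 in NAg and 16185, 15254 and 13434 in TAg (log2 fold change −1.79, SE 0.10, adjusted p = 1.18e-12). It was also lower at rest (9227 ± 255 in T0, 18138 ± 1905 in N0), and from rest to Ag its level rose in both states. *Kdm6b*, a demethylase of histone H3 lysine 27, was lower (−1.21, SE 0.10) from a mean of 44062 in NAg. The surface genes *Sema7a*, a semaphorin, *Cd69*, an early activation antigen, *Slamf1*, and *4632428N05Rik*, which encodes the inhibitory ligand VISTA, were lower by log2 fold changes of −1.55, −1.65, −1.5 and −1.18. *Bcl2l11*, the gene of the death inducer BIM, had 9289.7, 9759 and 8464 in NAg and 2093, 2040.0 and 2100.3 in TAg (log2 fold change −2.14, SE 0.11, adjusted p = 2.18e-12). Survival genes of the same family were lower beside it, with *Bcl2l1* (BCL-XL) at −1.08 and *Bcl2a1d* at −1.77, while *Bcl2* was higher (2252, 1722 and 1861 in NAg, 3389, 3074 and 2265 in TAg, log2 fold change 0.58, SE 0.18, adjusted p = 0.0214). The test of *Bcl2* was not passed without TAg replicate 1 (adjusted p = 0.0872), TAg replicate 2 (0.0645), NAg replicate 2 (0.0859) or NAg replicate 3 (0.0667), with log2 fold changes of 0.45 to 0.55. *Bcl2a1a*, *Bcl2a1b* and *Bcl2a1d* are near-identical copies that can share reads, so their separate values are uncertain.

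**Figure D3:**
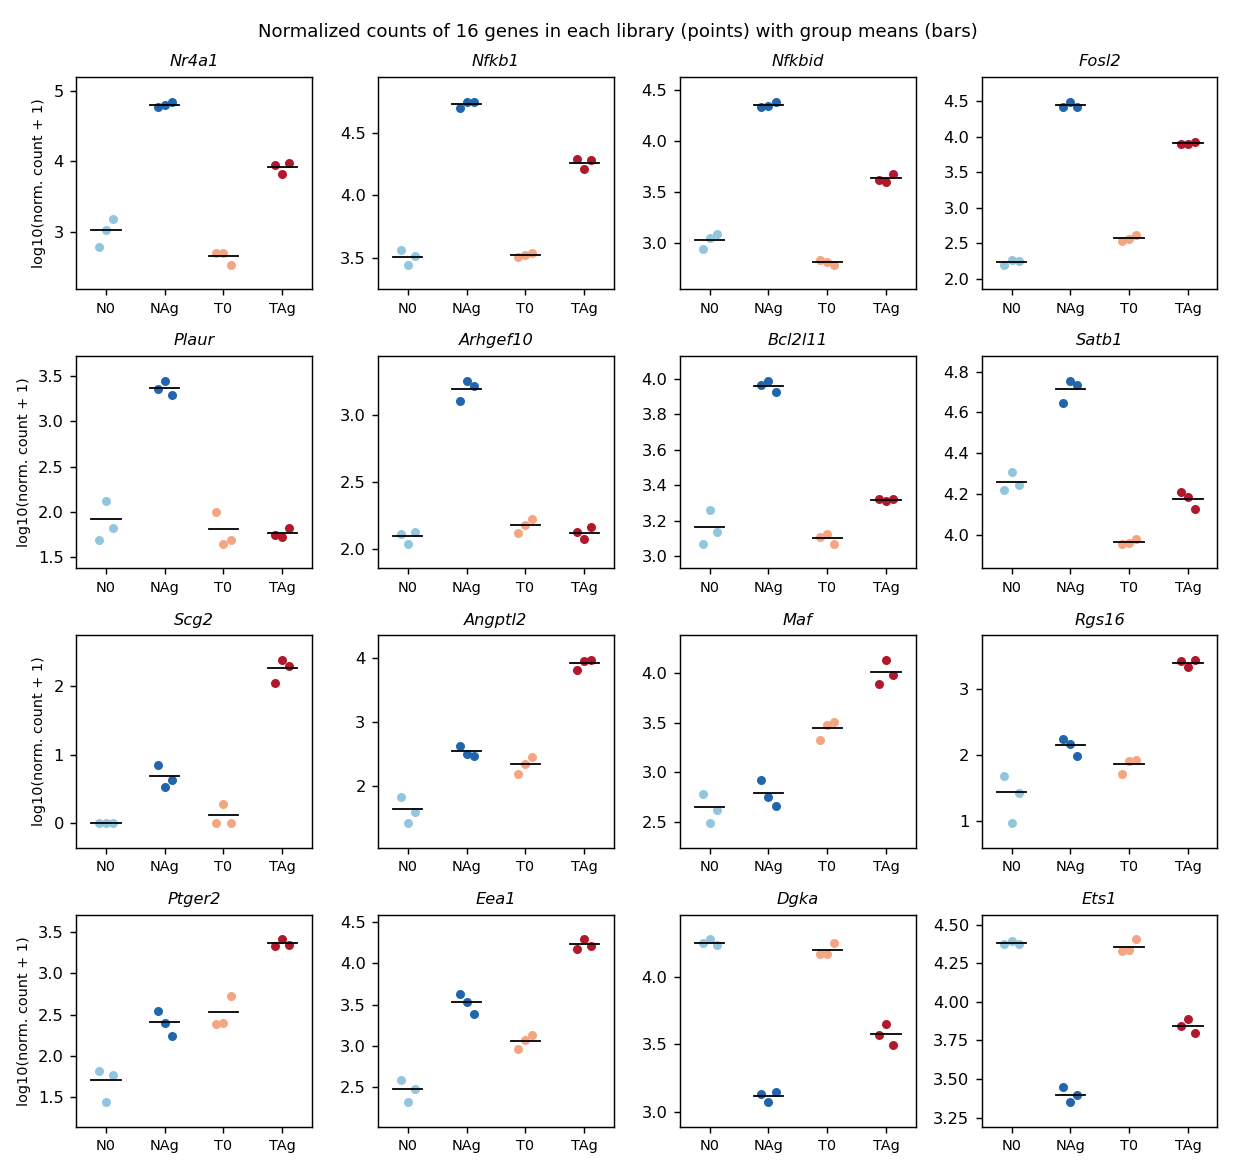
Normalized counts (as log10 after adding 1) of 16 genes in each of the 3 libraries (points) of N0, NAg, T0 and TAg, with group means (bars). For *Nr4a1*, *Nfkb1*, *Nfkbid*, *Fosl2*, *Plaur*, *Arhgef10*, *Bcl2l11* and *Satb1* every TAg library lies below every NAg library, and for the other 8 genes every TAg library lies above.

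Genes of growth were lower together but by small amounts. Of 39 tested genes of ribosome biogenesis, which encode the factors that transcribe, cut and assemble ribosomal RNA, 38 were lower in TAg, against a background of 18.5% lower. The median log2 fold change was −0.45, the range −0.91 to −0.17, and no gene reached a 2-fold change. The nucleolar proteins *Ncl* (41106, 45489.9 and 43691 in NAg, 26853, 25288 and 25434 in TAg, log2 fold change −0.75, SE 0.09, adjusted p = 3.28e-07) and *Npm1* (−0.59, SE 0.08) were among them. At rest *Ncl* had means of 3732 in N0 and 3641 in T0. At rest 19 of the 39 genes were lower in T0 than N0, a count without a background share, and the median of the list was −0.23. *Myc*, whose product drives these genes, was lower (−0.74, SE 0.09), with 25485, 27576 and 26059 in NAg and 16014, 14819 and 16519.6 in TAg.

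The other growth lists followed. Of 26 genes of polyamine, nucleotide and one-carbon synthesis, 16 were lower and 1 higher, among them *Odc1* (−0.90, SE 0.09), the first enzyme of polyamine synthesis, *Impdh1* (−0.96, SE 0.08) of guanine nucleotide synthesis and *Mthfd2* (−0.80, SE 0.08) of the mitochondrial folate cycle. Of 18 nutrient transporters, 10 were lower and 1 higher. The transferrin receptor *Tfrc* had 17762, 20915 and 23487 in NAg and 9584, 9839.7 and 11125 in TAg (log2 fold change −1.02, SE 0.13, adjusted p = 8.83e-06), and the arginine transporter *Slc7a1* 17087, 17635 and 17647 and 8805, 7399 and 9116 (log2 fold change −1.05, SE 0.08, adjusted p = 6.54e-10). The leucine transporter subunits *Slc7a5* and *Slc3a2* were lower by log2 fold changes of −0.54 and −0.75. Of 20 tRNA synthetases, 14 were lower and 2 higher, with the largest fall in *Cars* (−0.82, SE 0.12). Glycolysis was not of one direction, with 7 of 19 genes higher and 5 lower. *Hk1*, the first enzyme of the pathway, was lower (4403, 4759 and 4476 in NAg, 2059.8, 1874 and 2284 in TAg, log2 fold change −1.13, SE 0.08, adjusted p = 6.01e-11), while *Tpi1* (246, 193 and 192 against 531, 529 and 528, log2 fold change 1.33, SE 0.12, adjusted p = 6.32e-09) and *Eno1* (0.71, SE 0.08) were higher.

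**Figure D4:**
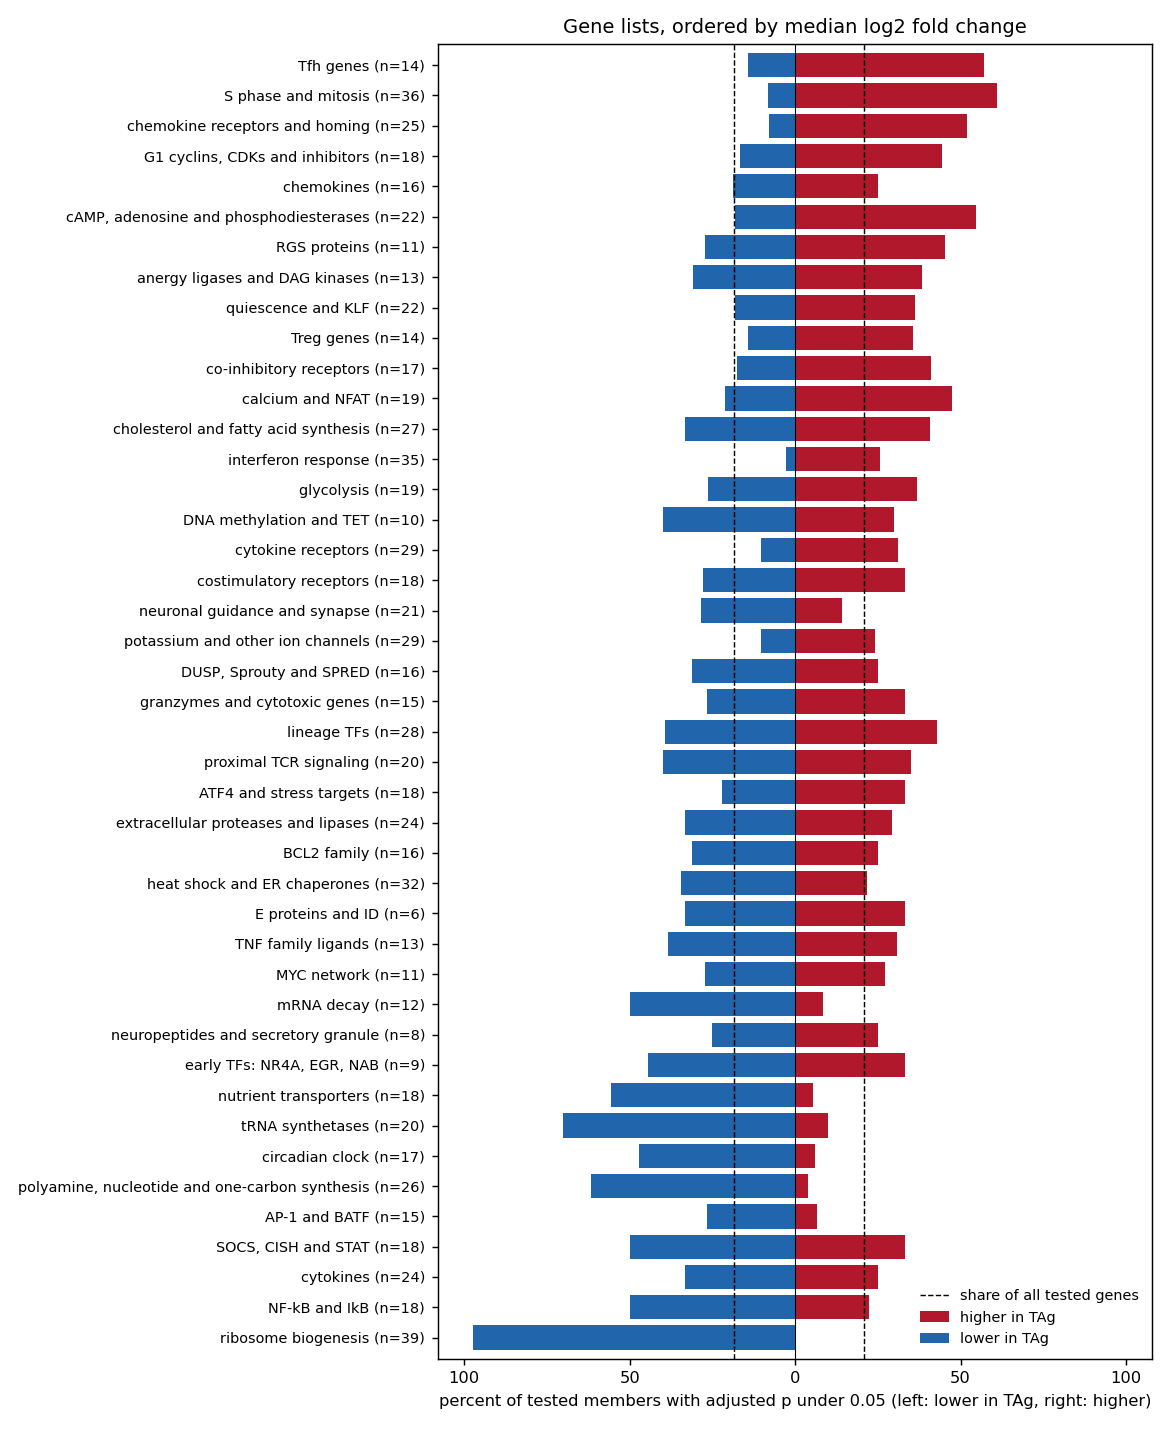
For each list of genes (number tested after n) the bars give the percentage of members with an adjusted p under 0.05 that were higher in TAg (red, to the right) or lower (blue, to the left), ordered by the median log2 fold change. Dashed lines mark the shares over all tested genes, 20.9% higher and 18.5% lower, and the ribosome biogenesis list reaches furthest to the left.

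The largest rise was of *Scg2*, the gene of secretogranin II, a precursor of neuropeptides in the granules of endocrine and nerve cells (chromosome 1, 79431244 to 79436665). It had 5.99, 2.35 and 3.30 in NAg and 111, 239.6 and 194 in TAg (log2 fold change 5.51, SE 0.60, adjusted p = 1.02e-05) and was at or near 0 in all resting libraries (0, 0 and 0 in N0, 0, 0.883 and 0 in T0). *Kcnc1*, a voltage-gated potassium channel gene, had 1.20, 2.35 and 2.20 in NAg and 52.8, 89.4 and 58.4 in TAg. Its 180 TAg reads against 5 NAg reads gave a ratio of 34.3 with a 95% counting interval of 14.4 to 107 (exact conditional), which covers counting error only. Unlike *Scg2*, it was already at 75.2, 60.9 and 130.4 in T0, against 20.8, 3.13 and 3.97 in N0. *Lpar3*, a receptor for lysophosphatidic acid, had 22.8, 14.1 and 14.3 in NAg and 268, 482 and 364 in TAg (log2 fold change 4.44, SE 0.48, adjusted p = 5.08e-06), and it too was low at rest (means of 1.67 in N0 and 4.49 in T0). *Npas4*, a bHLH factor best known for its induction by activity in neurons, had 33.6, 22.3 and 14.3 in NAg and 249.9, 396 and 147 in TAg (log2 fold change 3.5, SE 0.33, adjusted p = 1.3e-07). *Kcnc1* and *Scg2* belong to lists with shares near the background. Of 29 ion channels 7 were higher and 3 lower, and of 8 tested genes of neuropeptides and secretory granules 2 were higher and 2 lower.

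*Angptl2*, a secreted protein of the angiopoietin-like family, followed among the largest rises, with 424, 317 and 298 in NAg and 6580.0, 9162 and 9431 in TAg (log2 fold change 4.6, SE 0.29, adjusted p = 6.69e-08). *Alcam*, the ligand of CD6, had 811, 626 and 462 in NAg and 7988, 9949 and 7888 in TAg (log2 fold change 3.77, SE 0.23, adjusted p = 3.42e-08). *Rgs16*, which shortens G protein signals, had 173, 146 and 95.7 in NAg and 2569, 2126 and 2709.9 in TAg (log2 fold change 4.17, SE 0.26, adjusted p = 4.8e-08). For these 3 the lowest TAg library stood more than 8-fold above the highest NAg library. *Mtus1*, a microtubule-associated protein, was at 4.79, 2.35 and 2.20 in NAg and 46.2, 47.7 and 74.8 in TAg (4.14, SE 0.36). *Il10* (119.9, 82.2 and 45.1 against 3475, 3094 and 3719) and *Lag3* (173, 117 and 125 against 2379, 3015 and 2662) were the only cytokine and the only inhibitory receptor among the 15 largest rises. The response of *Angptl2* and *Rgs16* to Ag was larger in tolerized cells (2.26, adjusted p = 0.00632 and 2.78, adjusted p = 0.00211), while that of *Il10* gave no difference past the test (−0.04, adjusted p = 0.973) from means of 1.65 in N0 and 77.3 in T0. At high levels, *Nfat5*, the osmotic stress member of the NFAT family, had the highest counts of all called higher genes (9467, 10269.9 and 8815 in NAg, 22243, 20501 and 19772 in TAg, log2 fold change 1.13, SE 0.09, adjusted p = 5.67e-10). *Eea1*, the early endosome antigen, had 4298, 3381 and 2423 in NAg and 15076, 19697 and 16288 in TAg (log2 fold change 2.34, SE 0.24, adjusted p = 5.49e-06), and the scaffold gene *Ahnak* was higher (1.09, SE 0.18).

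Among the transcription factors of T cell lineages, 12 of 28 tested were higher and 11 lower. *Maf*, a regulator of IL-10 and of helper T cell fates, had 835, 562 and 458 in NAg and 7785, 13596 and 9686 in TAg (log2 fold change 4.07, SE 0.34, adjusted p = 1.1e-06). *Zbtb32* (3.65, SE 0.29), *Nfil3* (2.67, SE 0.22), *Zeb2* (2.1, SE 0.21), *Ahr* (1.72, SE 0.19) and *Prdm1* (1.66, SE 0.20) were also higher. *Prdm1*, the gene of BLIMP-1, had 604, 369 and 388 in NAg and 1538, 1492 and 1282 in TAg. The follicular helper factor *Bcl6*, which BLIMP-1 opposes, had 460.2, 681 and 713 in NAg and 214, 258 and 252 in TAg and was lower (log2 fold change −1.36, SE 0.16, adjusted p = 3.17e-06). Of the inhibitors of E proteins, *Id3* was higher (1.48, SE 0.20), *Id2* lower (−0.92, SE 0.12) and *Id1* lower (−1.37, SE 0.30). Of 14 genes of follicular helper cells 8 were higher and 2 lower, and of 14 genes of regulatory T cells 5 were higher and 2 lower. Among the latter were *Ikzf2* (Helios, 2.07, SE 0.31) and *Nrp1* (2.59, SE 0.37). *Foxp3*, the factor that defines regulatory T cells, did not pass the test (904, 747 and 431 in NAg, 1288, 679.6 and 922 in TAg, 0.48, adjusted p = 0.399).

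A further group of higher genes had fallen from rest to Ag in both states, and by less in tolerized cells. *Dgka*, the diacylglycerol kinase that limits RAS signaling in anergy, had means of 17900.5 ± 988 in N0 and 15768 ± 1799.6 in T0, a difference that did not pass the test (−0.18, adjusted p = 0.284). After Ag it had 1344, 1171 and 1388 in NAg and 3719, 4484 and 3104 in TAg (log2 fold change 1.53, SE 0.12, adjusted p = 4.81e-09), and the difference of the 2 responses was 1.72, SE 0.16, adjusted p = 2.86e-07. *Ets1*, a transcription factor of resting T cells, had 24190.5 in N0 and 22825 in T0, then 2797, 2229.7 and 2483 in NAg and 6951, 7696 and 6293 in TAg (log2 fold change 1.48, SE 0.09, adjusted p = 2.49e-11, difference of responses 1.56, adjusted p = 8.38e-09). *Zbtb7b*, the CD4 lineage factor ThPOK, had 225, 203 and 202 in NAg and 679, 647 and 652 in TAg (log2 fold change 1.65, SE 0.10, adjusted p = 2.35e-11), and in this case the resting level was lower in tolerized cells (−0.63, adjusted p = 2.76e-05). *Cdkn1b*, the cell cycle inhibitor p27, fell from 3173 in N0 to 209.8 in NAg and from 3019.7 in T0 to 429.9 in TAg. The migration gene *S1pr1* (1.07, SE 0.13) was higher in the same way. The quiescence factor *Klf2* had 400.3, 248 and 808 in NAg and 1294, 1161 and 1075 in TAg (log2 fold change 1.27, SE 0.32, adjusted p = 0.00647), and its difference of responses did not pass (1.27, adjusted p = 0.0522). *Igfbp4*, a binding protein of insulin-like growth factors, differed from these genes, since it fell in naive cells (from 3133 to 1537) but rose in tolerized cells (from 3472 to 6102; TAg against NAg 1.99, SE 0.19). Of 22 genes of quiescence and the KLF family, 8 were higher and 4 lower.

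Of 20 genes of proximal TCR signaling 7 were higher and 8 lower. *Cd3e*, *Cd3g* and *Cd3d*, chains of the receptor complex, were higher by log2 fold changes of 0.96, 1.01 and 0.60, and *Cd4* by 0.57. At rest *Cd3d* (−0.24, adjusted p = 0.027) and *Cd4* (−0.43, adjusted p = 0.000392) were lower in tolerized cells. *Themis*, a regulator of TCR thresholds, was lower (3092, 3948 and 2355 in NAg, 938, 779.7 and 1012 in TAg, log2 fold change −1.78, SE 0.15, adjusted p = 2.93e-07). Of 19 calcium and NFAT genes 9 were higher and 4 lower. The calcium channel *Orai1* had 3714, 4064 and 3685 in NAg and 1748, 1590.5 and 2056 in TAg (log2 fold change −1.09, SE 0.11, adjusted p = 1.47e-07), and *Itpkb*, which phosphorylates inositol trisphosphate, was lower (−1.11, SE 0.08), while *Nfatc2* (0.99, SE 0.11) and *Nfatc3* (0.84, SE 0.11) were higher. Of 13 ubiquitin ligases, diacylglycerol kinases and other genes linked to anergy, 5 were higher and 4 lower. *Cblb*, a ligase that restrains TCR signaling, was slightly lower after Ag (−0.30, adjusted p = 0.0146), although it was higher at rest (0.58, adjusted p = 0.000156). The former was not passed without TAg replicate 3 (adjusted p = 0.0724) or NAg replicate 2 (0.12).

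The feedback phosphatases of MAP kinases split. *Dusp5*, which acts on nuclear ERK, had 4800.1, 5032 and 4375 in NAg and 1459, 1396 and 1453 in TAg (log2 fold change −1.72, SE 0.17, adjusted p = 2.04e-06), and *Dusp6*, which acts on cytoplasmic ERK, 155, 117 and 179 in NAg and 1517, 1781 and 1615 in TAg (log2 fold change 3.44, SE 0.19, adjusted p = 4.37e-09). *Dusp6* fell from rest to Ag in naive cells (232 in N0) and rose in tolerized cells (404 in T0). The RAS inhibitor gene *Spred2* was lower (−1.10, SE 0.09). Of 16 genes of the DUSP, Sprouty and SPRED families 4 were higher and 5 lower.

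The genes of cyclic AMP signaling had 12 of 22 higher and 4 lower. *Ptger2*, a receptor of prostaglandin E2 that raises cyclic AMP, had 351, 251 and 173 in NAg and 2154, 2607 and 2207 in TAg (log2 fold change 3.17, SE 0.31, adjusted p = 4.52e-06), and *Nt5e* (CD73), which makes adenosine, 82.7, 35.2 and 24.2 in NAg and 229, 410.1 and 189.5 in TAg (log2 fold change 2.55, SE 0.52, adjusted p = 0.00182). Both were also higher at rest (2.79, adjusted p = 0.00034, and 2.09, adjusted p = 0.00189). *Adcy7*, an adenylyl cyclase, was higher (0.99, SE 0.10). The phosphodiesterases that break cyclic AMP down differed by gene. *Pde4b* (2301, 2899 and 2099.5 in NAg, 694, 739 and 911 in TAg, log2 fold change −1.64, SE 0.10, adjusted p = 4.1e-11) and *Pde4d* (−0.91, SE 0.16) were lower, and *Pde7a* (1.28, SE 0.14) and *Pde2a* (0.94, SE 0.18) higher. *Crem*, a cyclic AMP-responsive transcription factor gene, had 2559, 3363 and 3204 in NAg and 574, 665 and 603 in TAg (log2 fold change −2.31, SE 0.15, adjusted p = 7.22e-09). Of 11 regulators of G protein signaling, 5 were higher, among them *Rgs16* and *Rgs3* (1.75, SE 0.09), and 3 were lower, among them *Rgs2* (−1.21, SE 0.20).

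Among surface receptors and their ligands, 7 of 17 co-inhibitory receptors and ligands were higher and 3 lower. *Tigit* (2.86, SE 0.34), *Cd160* (2.09, SE 0.24) and *Cd200* (1.67, SE 0.22) were higher, and *Btla* lower (−0.48, SE 0.10). Of 18 costimulatory receptors 6 were higher and 5 lower, the former including *Crtam* (258, 179.7 and 174 in NAg, 1640.3, 1198 and 1517 in TAg, log2 fold change 2.84, SE 0.18, adjusted p = 3.28e-09) and *Icos* (1.43, SE 0.14). The TNF family ligands diverged, with 4 of 13 higher and 5 lower. *Tnfsf11* (RANKL) had 3630.3, 3863 and 3041 in NAg and 697, 469 and 712 in TAg (log2 fold change −2.48, SE 0.23, adjusted p = 2.61e-06), and *Fasl* was lower (−1.85, SE 0.13). *Tnfsf8* (CD30 ligand) had 5064, 3260.0 and 2935 in NAg and 8259.9, 10810.2 and 9965 in TAg (log2 fold change 1.37, SE 0.21, adjusted p = 0.000172), and *Tnfsf4* (OX40 ligand) was higher at a low level (2.12, SE 0.28). Of 16 chemokines 4 were higher and 3 lower, the former led by *Xcl1* (234, 187 and 184 in NAg, 2110.4, 643 and 1715 in TAg, log2 fold change 2.89, SE 0.43, adjusted p = 0.00016) and spread unevenly over the TAg libraries. Of 25 chemokine receptors and homing genes 13 were higher and 2 lower, with a median of 0.61. *Ccr2* and *Cxcr3* were higher by log2 fold changes of 1.90 and 1.64, and both were also higher at rest. *Gpr183*, a receptor for oxysterols that positions cells at the follicle, was lower (−1.04, SE 0.10).

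Downstream of cytokine receptors, 9 of 18 genes of the SOCS, CISH, PIM and STAT families were lower and 6 higher. *Stat5a*, a transducer of IL-2 signals, had 14474, 17034 and 15713 in NAg and 7613, 6482 and 8704 in TAg (log2 fold change −1.05, SE 0.09, adjusted p = 4.91e-09). Genes known as targets of that signal, *Socs1* (−1.07, SE 0.10), *Cish* (−0.76, SE 0.15) and *Pim1* (−0.81, SE 0.13), were lower with it. Of 35 interferon response genes 9 were higher and 1 lower, and the median of the list was 0.12. The interferon gene *Ifng* did not pass the test (1584, 749.5 and 462 in NAg, 937, 679.6 and 1096 in TAg, −0.04, adjusted p = 0.961).

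Of 36 genes of S phase and mitosis 22 were higher and 3 lower, with a median of 0.68. At rest 20 of the 36 were higher, a count without a background share. *Top2a*, a topoisomerase of dividing cells, had 291, 253 and 280.4 in NAg and 747, 702 and 948 in TAg (log2 fold change 1.54, SE 0.27, adjusted p = 0.000447), with means of 285 in N0 and 713 in T0. *Ccnb1*, the cyclin of mitosis, was higher (1.87, SE 0.41), as was *Cdk1* (1.44, SE 0.32). TAg replicate 3 had the highest value of each of these 3 genes, and each passed the test without that library too. It is the library with Y-linked reads and the highest erythroid sum (2505, against 358 and 686 in the other TAg libraries). Its neutrophil sum (5035, against 2733 and 2947) was also the highest. With the marker scores as covariates none of the 3 genes passed. *Cdkn1a*, the cell cycle inhibitor p21, was lower (561, 569.8 and 537 in NAg, 149, 94.2 and 139 in TAg, log2 fold change −2.12, SE 0.18, adjusted p = 1.4e-07).

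Of 32 chaperones 7 were higher and 11 lower. The endoplasmic reticulum genes *Pdia4* (1.07, SE 0.11), *Pdia3* (0.88, SE 0.07) and *Xbp1* (0.76, SE 0.08) were among those higher, and *Dnajb9* (−1.27, SE 0.19) and the mitochondrial *Hspa9* (−0.49, SE 0.07) among those lower. Of 27 genes of cholesterol and fatty acid synthesis 11 were higher and 9 lower. Of 17 clock genes 8 were lower and 1 higher, with *Per1* (4261, 5126 and 5088 in NAg, 2289.8, 2172 and 2066 in TAg, log2 fold change −1.15, SE 0.17, adjusted p = 6.49e-05), a period gene, and *Rora* (−1.12, SE 0.15) among the former. Of 10 genes of DNA methylation and its removal 3 were higher and 4 lower, among them *Dnmt1* (0.65, SE 0.07), the maintenance enzyme, and *Dnmt3a* (−0.89, SE 0.07), which methylates new sites. Of 12 regulators of mRNA decay 6 were lower, and *Zc3h12d* (Regnase-4) was the 1 that was higher (1251, 1136 and 875 in NAg, 3769, 4359 and 4129 in TAg, log2 fold change 1.91, SE 0.15, adjusted p = 6.69e-08), while its relative *Zc3h12a* (Regnase-1), which destroys cytokine mRNA, was lower (−0.85, SE 0.11). Of 24 extracellular proteases, their inhibitors and lipases 7 were higher and 8 lower. *Serpinb9*, an inhibitor of granzyme B, was lower (−2.11, SE 0.14) and *Gzmb* itself higher (1.16, SE 0.25).

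Noncoding transcripts changed in both directions, and the hosts of 4 microRNAs are shown with the mature sequences that they carry. The mature microRNAs were not measured here, and the values are those of the host transcripts. The capitals mark the seed (bases 2 to 8), by which a microRNA pairs with its targets, and the sequences are from RefSeq.

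mmu-miR-212-3p, host 1700016P03Rik, lower in TAg: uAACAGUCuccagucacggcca
mmu-miR-132-3p, host 1700016P03Rik, lower in TAg: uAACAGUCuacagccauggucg
mmu-miR-155-5p, host lincRNA Mir155, lower in TAg: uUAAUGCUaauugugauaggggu
mmu-miR-223-3p, host F630028O10Rik, higher in TAg: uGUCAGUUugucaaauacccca

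The lincRNA *1700016P03Rik* (NCBIM37, chromosome 11, 74986062 to 74991135) spans the hairpins of miR-212 and miR-132, which share the seed AACAGUC. It had 76.7, 85.8 and 69.3 in NAg and 6.61, 3.58 and 3.07 in TAg (log2 fold change −4.09, SE 0.30, adjusted p = 3.41e-10) and at most 4.42 at rest. The lincRNA *Mir155* (chromosome 16, 84713268 to 84715487), the host of miR-155, a microRNA of T cell activation, had 2568, 2751 and 2157 in NAg and 1216, 1221 and 1281 in TAg (log2 fold change −1.01, SE 0.12, adjusted p = 1.45e-06), and the hairpin lies in its exon. *Mir17hg*, the host of the miR-17-92 cluster, was lower (−0.77, SE 0.12). *F630028O10Rik* (chromosome X, 93435281 to 93438975), the host of miR-223, which is known from neutrophils and other myeloid cells, was higher (7.19, 7.05 and 12.1 in NAg, 73.8, 68.0 and 138 in TAg, log2 fold change 3.39, SE 0.34, adjusted p = 4.18e-08) and, like the neutrophil markers, highest in TAg replicate 3. The lncRNA *Miat* (3.78, SE 0.66) and *B930095G15Rik* (3.59, SE 0.29) had the largest rises of the noncoding genes, and *Gm14718* (−4.6, SE 0.33) the largest fall. Of 638 lincRNAs tested, 17 were called lower (2.66%) and 4 called higher (0.627%), against 2.05% and 3.61% of all tested genes.

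Some of the largest changes were in genes of other cells. Of the 15 largest rises, *Camp* (2.40, 1.17 and 5.50 in NAg, 62.8, 56.0 and 70.7 in TAg), *Prtn3* (3.60, 5.87 and 0 against 50.6, 37.0 and 64.5) and *Prss34* (1.20, 15.3 and 6.60 against 127, 262 and 54.3) are genes of granulocytes and their precursors, and *Saa3* (0, 1.17 and 8.80 against 40.7, 63.2 and 72.7) is an acute phase gene that did not pass under DESeq2 (adjusted p = 0.478). *Camp* and *Prtn3* were also higher in T0 than N0 (4.57, adjusted p = 2.4e-06, and 4.21, adjusted p = 0.000131), while *Saa3* was at 0 in every resting library. Of the 15 largest falls, *C1qb* (126, 31.7 and 17.6 against 5.50, 1.19 and 1.02), *Fcna* (103, 35.2 and 12.1 against 8.81, 0 and 1.02) and *Mrc1* (173, 44.6 and 16.5 against 6.61, 5.96 and 9.22) are macrophage genes, and each was highest in NAg replicate 1, the library with the highest macrophage sum. Fitted on the TAg and NAg libraries alone, *Fcna* (adjusted p = 0.0565) and *Mrc1* (0.0618) did not pass, nor did *Klf2* (0.0941). What macrophages contributed was not tested.

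To compare the difference after Ag with that at rest, the called genes were set against T0:N0, which shares no library with TAg:NAg. Of the 622 genes called higher after Ag, 200 were also called higher in T0 than N0, which is 32.2% of the former and 44.4% of the 450 genes called higher at rest (2.61% of those tested). Of the 353 genes called lower, 31 were also called lower in T0 (8.78%, and 27.9% of the 111 genes called lower at rest, which are 0.644% of those tested), and 7 were called higher there. All 14 neutrophil markers, higher in TAg, were also higher in T0 than N0, with a median log2 fold change of 4.28 at rest. That count has no background share beside it. What other cells contributed to the overlap of the 2 comparisons was not tested. The median log2 fold change at rest was 0.71 for the genes called higher after Ag and −0.25 for those called lower. The called lower genes had median levels of 119 in N0, 96.4 in T0, 416 in NAg and 124 in TAg. The called higher genes had 134, 240.3, 65.9 and 182 in the same order. Over all tested genes these medians were 115, 120, 85.9 and 98.9. Because the calls were made on the NAg and TAg levels, where the resting medians lie against NAg is in part set by the calls.

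**Figure D5:**
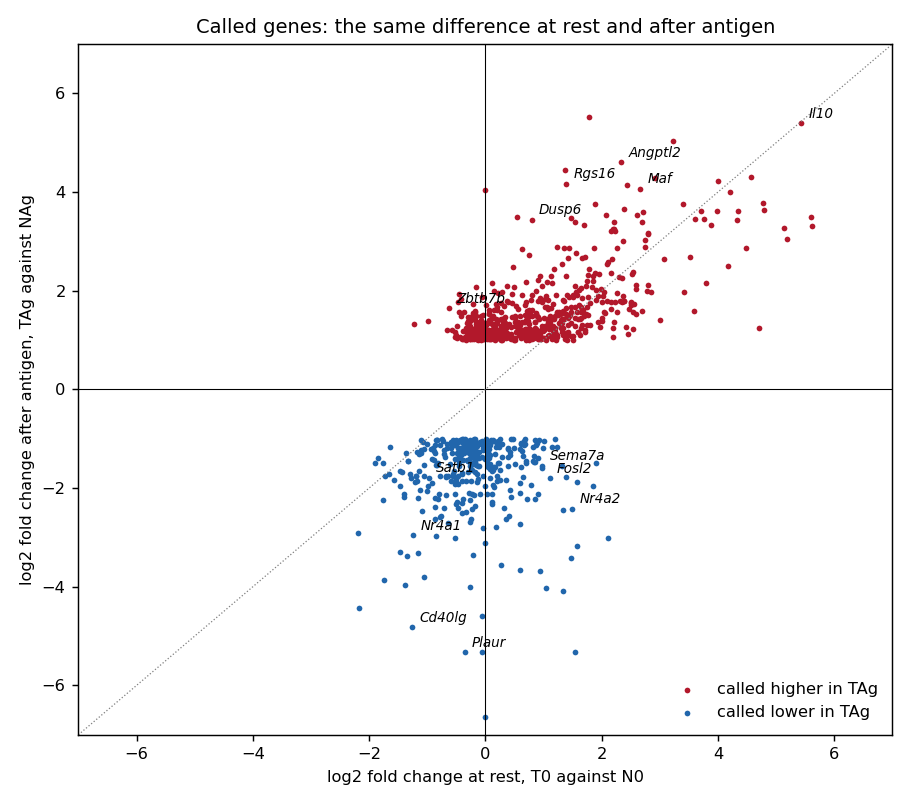
Each point is a gene called higher (red) or lower (blue) in TAg than NAg, with its log2 fold change at rest (T0 against N0) on the x axis and after Ag on the y axis. The dotted line marks equal change. The red points had a median of 0.71 on the x axis and 1.34 on the y axis, and 200 of the 622 were also called higher at rest. The blue points had a median of −0.25 on the x axis and −1.46 on the y axis.

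The counting setting for strand is not stated in the sources used here. How many of all tested genes overlap another gene was not counted. Of the called genes, 149 of the 622 higher and 80 of the 353 lower share exonic bases with another gene. Among those named, this holds for *1700016P03Rik*, *Agpat9*, *Ahr*, *Aph1c*, *Arhgef10*, *Bcl2*, *Bcl2a1b*, *Cars*, *Cd160*, *Cish*, *Crem*, *Dgka*, *Dnmt3a*, *Egr1*, *F630028O10Rik*, *Fcna*, *Foxp3*, *Gm16350*, *Hk1*, *Itpkb*, *Jun*, *Kdm6b*, *Maf*, *Mafg*, *Mafk*, *Mir155*, *Mir17hg*, *Mtus1*, *Nab2*, *Ndrg1*, *Nfatc3*, *Nfkb2*, *Nfkbib*, *Nrp1*, *Orai1*, *Pde7a*, *Pdia3*, *Pdia4*, *Pim1*, *Prtn3*, *Ramp3*, *Rora*, *Stat5a*, *Themis*, *Top2a*, *Tpi1*, *Zbtb7b* and *Zeb2*, whose values are uncertain to that extent.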

How the data were processed

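RNA was depleted of rRNA, and libraries were made with the NEBNext Ultra II kit and sequenced. The authors aligned reads to mm9 with TopHat2 2.1.1 and deposited raw counts per Ensembl gene for each library from HTSeq 0.9.1. The submitters' processing notes also list DESeq2 1.18 and edgeR 3.24. The strand and overlap settings of the counting are not given in the sources used here. Reads of overlapping genes, and of genes with near-identical copies, may therefore be lost or misplaced.

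Of 37991 gene identifiers, 37205 were found in the NCBIM37 annotation, from which symbols, positions and overlaps were taken. A blank line in each file was left out. The 12 libraries of TAg, NAg, T0 and N0 and the 6 of the other groups were fitted together with edgeR 4.0.16 in R 4.3.3 (TMM scaling, robust quasi-likelihood test, Benjamini-Hochberg adjustment over all tested genes). Adjusted p-values throughout come from this fit unless another is named. Normalized counts are counts divided by TMM size factors, and SE is the standard error of a log2 fold change. Differences of responses are the contrast (TAg − T0) − (NAg − N0). Replicates are described as biological, but whether a library came from 1 mouse or a pool is not given, and p-values cover the spread between these libraries only. The fit was tested on simulated data with known answers. Counting intervals cover counting error only.

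Genes named are members of gene lists, the 15 largest called changes in each direction with groups that do not overlap, the 10 called genes with the highest counts in each direction and the 5 largest noncoding changes in each direction. *Igfbp4*, *Mir155*, *Mir17hg*, *Ndrg1* and *Npas4* were added after their values were seen. The gene lists and the comparison were chosen with earlier results of these data known. Motifs were searched on both strands of RefSeq promoters. The alternatives were DESeq2 1.42.0, other scaling, filters, covariates and sets of libraries.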

Additional observations from a re-analysis of the deposited data

Results flagged for a closer look

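For 14 of the 173 genes named, tolerized cells passed the test in opposite directions at rest and after Ag, and the difference between the 2 passed the test as well. The share of all tested genes with this pattern was not counted, so the number describes the named genes only. The values here are the log2 differences of the antigen responses, tolerized minus naive. Genes higher at rest and lower after Ag were *Nr4a2* (−3.91), *Fosl2* (−2.91), *Sema7a* (−2.53), *Mir155* (−2.20), *Rora* (−1.99), *Pim1* (−1.23), *Mafg* (−0.95) and *Cblb* (−0.88). Genes lower at rest and higher after Ag were *Zbtb7b* (2.28), *Nab2* (1.23), *Egr1* (1.18), *Cd4* (1.0), *Eno1* (0.94) and *Cd3d* (0.84). The first of these sets was of genes that rose from rest to Ag in both states, with a smaller rise in tolerized cells.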

How the results depend on the processing

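The 622 genes called higher, 353 called lower, and the 200 and 31 also called in the same direction at rest stayed within 1.5 times under DESeq2, the calling rule of the study's methods, DESeq2 size factors, no filter on low counts, a fit of the compared groups only and a covariate for libraries with Y-linked reads. Leaving out 1 library gave 532 to 784 genes higher, 335 to 388 lower, 157 to 231 higher in both and 25 to 39 lower in both. Without the minimum average count of a call, the counts were 1134, 726, 422 and 62. With the marker scores as covariates they were 21, 85, 1 and 0, and 15 of the 622 and 59 of the 353 genes were among those still called. This fit spends 3 degrees of freedom on scores of which the neutrophil score followed the groups. *Camp* and *Prtn3* are themselves part of the neutrophil score, so what becomes of them is in part set by the fit. In it the log2 fold change turned its sign, without passing the test, for *Bcl2a1a* (1.06), *Btla* (0.25), *Camp* (−1.40), *Ccl22* (0.73), *Ccnb1* (−2.10), *Cdkn1a* (0.86), *Cish* (0.36), *Dnmt1* (−0.048), *Egr3* (1.14), *F630028O10Rik* (−0.16), *Fcna* (1.68), *Gzmb* (−1.17), *Id2* (0.059), *Ifng* (2.13), *Il3* (4.86), *Jun* (−0.51), *Klf2* (−1.23), *Nab2* (−0.10), *Pde2a* (−0.61), *Pim1* (0.17), *Prtn3* (−1.18) and *Saa3* (−12.50). *Ifng*, which passed no fit, also turned without TAg replicate 2 (0.13) or NAg replicate 1 (0.59) and with a replicate block (0.049), and over the fits with 1 library left out it ranged from −0.37 to 0.59. Over the same fits *Fos* ranged from −0.47 to 0.16 and *Fosb* from −0.81 to 0.48, both above 0 without NAg replicate 3 only.

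Of 1118 recomputed list counts, 125 moved by more than 1.5 times, 85 of them with the marker scores. Under DESeq2, *Saa3* (adjusted p = 0.478) and *Bcl2a1a* (0.0539) did not pass. Replicates of the same number in TAg and NAg had correlated deviations of −0.05, 0.08 and −0.02, within the range of those of different number (−0.13 to 0.14). With 3 libraries per group this cannot tell whether libraries of the same number were handled together. The main fit did not pair them, and the fit with a replicate block gave 618, 349, 204 and 31 genes. Genes with few reads have wide errors at 10919277 to 13559974 counts per library.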
